A study of Homo sapiens with 8 samples.

Results

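The genes described are 10 members of the Notch pathway, the receptors NOTCH1, NOTCH2, NOTCH3 and NOTCH4, the ligands JAG1, JAG2 and DLL4, the DNA-binding factor RBPJ and the target genes HES1 and HEY1. They were found by symbol among the 27946 gene symbols of the deposited expression table, and all 10 were listed. For each symbol, the transcript with the highest mean value over the 8 libraries was used. In short, NOTCH4 was downregulated in clones of both deletions, HEY1 was downregulated in ΔE2, and HES1 was upregulated in ΔSE12313-b. The change of HES1 did not pass the test when either control library was left out. That of NOTCH4 in ΔE2 was close to the 2-fold threshold. NOTCH1 and NOTCH2 stayed the most abundant receptors throughout.

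Notch signaling passes between touching cells. A ligand on one cell binds a receptor on its neighbor, the receptor is cut in its membrane, and the freed intracellular domain joins RBPJ on DNA and turns a repressor complex into an activator. HES1 and HEY1, which encode repressors of the basic helix-loop-helix class, are among the genes switched on in this way, and HEY1 is also a target of BMP signaling. In endothelium, DLL4 and JAG1 are the ligands studied most, NOTCH1 and NOTCH4 are receptors of endothelial cells, and NOTCH3 is best known from pericytes and smooth muscle.

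All libraries came from EA.hy926, a line made by fusing umbilical vein endothelial cells with lung carcinoma cells, and the question was what changes when a stretch of the endothelial super-enhancer SE12313 on chromosome 16 is removed. There were 2 libraries of control cells, 3 of lines lacking the enhancer E2 (ΔE2) and 3 of lines lacking SE12313-b (ΔSE12313-b), a neighboring stretch without activity in reporter assays. Each deletion line was grown from a single cell after delivery of Cas9 with flanking guides, and each gave 1 library, so the clones of a deletion differ by their founder cell as well. The RNA controls are labelled only as control. They were not described as clones. For a growth assay, guide-transfected controls cultured in parallel are described, and whether the RNA controls were these cells is not stated. Nothing says that both came from separate cultures, so p-values measure the spread between these libraries, part of which may be technical.

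The libraries held 12067558 to 19101150 reads, sizes recovered from the deposited values. Expression is given as FPKM, reads per kilobase of transcript at a common library size, which allows levels of different genes to be set side by side. Because cultures were measured in bulk, a lower level in all cells and fewer cells with the transcript cannot be told apart. As for the label of the line, 9 of 12 endothelial markers had a mean FPKM of 1 or more in the control, but CLDN5 was at 0 in all 8 libraries and KDR lay between 0.047 and 0.292. The epithelial markers CDH1 and NKX2-1 were at 0 in all libraries as well. The clones differed from the control in much more than Notch genes. The summed FPKM of 8 proliferation markers was 83.0 to 86.3 in control cells, 525 to 651 in ΔE2 clones and 594 to 652 in ΔSE12313-b clones, and MKI67 had log2 fold changes of 5.21 and 5.58 in ΔE2 and ΔSE12313-b. The summed epithelial markers, nearly all of it KRT7, KRT8 and KRT18, went from 361 to 363 in the control to 1084 to 1210 in ΔE2 and 811 to 1069 in ΔSE12313-b. The part of these differences in the results for the Notch genes was not tested.

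A total of 13790 genes reached an FPKM of 0.5 in 2 or more libraries and were tested with limma on log2(FPKM + 0.1), and a gene was called when its adjusted p was under 0.05 (Benjamini-Hochberg over these genes) with a change of at least 2-fold. Fold changes are on that scale, which understates the change of genes with low values. The median log2 fold change of all tested genes was 0.14 for ΔE2 and 0.27 for ΔSE12313-b, and a second value is given relative to this median where it matters. Of the 10 Notch genes, 9 passed the filter, and NOTCH3 did not. In ΔE2, 0 of the 9 were called higher by limma (2 at an unadjusted p under 0.05, 0 by voom) and 2 were called lower (NOTCH4 and HEY1), where 11.2% and 8.36% of all tested genes were called (19.6% in either direction). In ΔSE12313-b, 1 was called higher (HES1) and 1 was called lower (NOTCH4), against 14.7% and 7.83% of all tested genes (22.6% in either direction). Between the deletions 0 were called in either direction by limma (2 higher and 3 lower in ΔE2 at an unadjusted p under 0.05, and 1 in each direction by voom), where 1.6% of all tested genes were higher and 2.63% lower in ΔE2 (4.23% in either direction). With 9 genes tested, a single gene is a large share, and nothing particular to the Notch genes is read from these counts. Both comparisons with the control use the same 2 control libraries. The median log2 fold change of the 9 genes was 0.14 in ΔE2 and 0.33 in ΔSE12313-b.

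**Figure D1:**
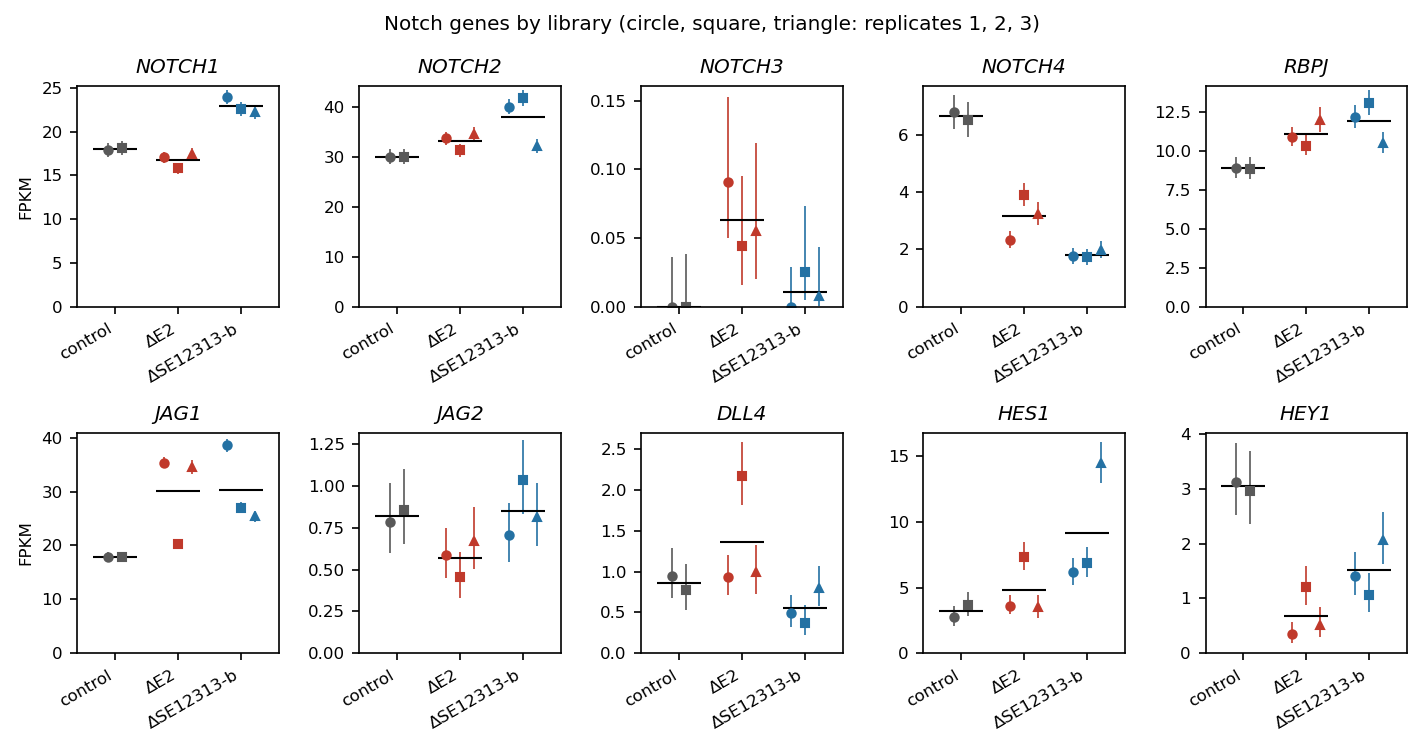
FPKM of the 10 Notch genes (vertical axes, linear from 0, a separate scale for each gene) in the 8 libraries, with circles, squares and triangles for replicates 1, 2 and 3, horizontal lines for group means and bars for the 95% Poisson interval of the reads, which covers counting error only. NOTCH4 is lower in all 6 clones than in both controls, and DLL4, HES1 and HEY1 are spread widely among clones of the same deletion, with ΔE2 clone 2 and ΔSE12313-b clone 3 highest in each.

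NOTCH4, the receptor that is largely restricted to endothelium, had an FPKM of 6.77 and 6.49 in the controls, of 2.33, 3.90 and 3.24 in ΔE2 clones 1, 2 and 3, and of 1.76, 1.72 and 1.97 in the ΔSE12313-b clones. The 3 groups did not overlap, with the control highest and ΔSE12313-b lowest. NOTCH4 was downregulated by a log2 fold change of -1.08 in ΔE2 (standard error, SE, 0.20, adjusted p = 0.00253, limma) and of -1.81 in ΔSE12313-b (SE 0.20, adjusted p = 0.000145), lower in 3 of 3 clones each time. Relative to the median of all genes these changes were -1.22 and -2.09. In ΔE2 the change is close to the 2-fold threshold, and without ΔE2 clone 1 it was -0.88 and no longer called. The gene lies on the minus strand of chromosome 6 from 32162620 to 32191844 (GRCh37), and the transcript used, NR_134950, is listed at 7 places of the build that include alternative haplotypes. Its last 681 bp overlap GPSM3 on the same strand. GPSM3 itself had mean FPKM of 13.8 in control cells, 14.0 ± 0.936 (SD, n = 3) for ΔE2 and 14.4 ± 3.30 (SD, n = 3) for ΔSE12313-b, and its log2 fold changes were 0.02 and 0.03. Of the endothelial markers, 3 were called higher (PECAM1, ERG and ESAM) and 2 lower (VWF and EMCN) in ΔE2, and 2 higher (PECAM1 and ERG) and 1 lower (VWF) in ΔSE12313-b, out of 10 tested. Of all tested genes, 11.2% were called higher and 8.36% lower in ΔE2, and 14.7% and 7.83% in ΔSE12313-b. EMCN was at 0.333 and 0.371 in the controls and passed the filter only through the ΔSE12313-b clones (0.671 to 1.58). The summed FPKM of the endothelial markers was 312 to 313 in control cells, 334 to 522 in ΔE2 clones and 335 to 454 in ΔSE12313-b clones. The single markers did not move as 1 group. EGFL7, a protein secreted by endothelium, was at 89.9 and 91.0 in the controls and higher in 6 of 6 clones (106 to 184), and without it the sum was 222 to 223 in control cells, 216 to 365 in ΔE2 clones and 196 to 271 in ΔSE12313-b clones, a sum chosen after the values were seen. PECAM1, TEK, ERG and ESAM were also above both controls in 6 of 6, and VWF below both in 6 of 6. ROBO4 and EMCN were above both in 3 clones and below both in 3. TIE1, an endothelial receptor kinase, was below both controls (55.3 and 56.8) in 6 of 6 clones (39.1 to 53.5). Its log2 fold changes were -0.37 in ΔE2 (adjusted p = 0.0149, limma) and -0.16 in ΔSE12313-b (adjusted p = 0.216). CDH5, the endothelial cadherin, was below both in 5 of 6 and above both in 1. Its changes were -0.11 (adjusted p = 0.747) and -0.43 (adjusted p = 0.205, limma). The part of the markers in the change of NOTCH4 was not tested.

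NOTCH1, the receptor with the best-described role in endothelial sprouting, was at 17.9 and 18.2 in the controls, at 17.1, 15.8 and 17.4 in ΔE2 and at 24.0, 22.6 and 22.2 in ΔSE12313-b. Clones of each deletion were close to each other, and the ΔSE12313-b clones lay above all other libraries. In ΔE2 the log2 fold change was -0.11 (95% interval -0.28 to 0.07, adjusted p = 0.260, limma), and with quantile normalization -0.39 (adjusted p = 0.00197). In ΔSE12313-b it was 0.34 (SE 0.07, adjusted p = 0.00475), under 2-fold, only 0.07 above the median of all genes, turned to -0.075 with quantile normalization, and missed the adjusted p there (0.381) and with centred libraries (0.539). The gene is on the minus strand of chromosome 9 from 139388885 to 139440238.

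NOTCH2, the receptor with the highest level here, had an FPKM of 30.02 and 30.04 in the controls, of 33.7, 31.3 and 34.5 in ΔE2 and of 40.02, 41.8 and 32.2 in ΔSE12313-b. All clones were above the controls, by log2 fold changes of 0.14 in ΔE2 (SE 0.11, adjusted p = 0.322, limma) and 0.33 in ΔSE12313-b (SE 0.11, adjusted p = 0.0365). Relative to the median of all genes the changes were 0.00 and 0.06, and with quantile normalization they turned to -0.17 and -0.11. The adjusted p in ΔSE12313-b missed 0.05 in 11 of 20 alternatives, which ran from 0.0515 to 0.771 and included those without either control (0.132 each), without ΔE2 clone 1 (0.0530) or 3 (0.0515) and without ΔSE12313-b clone 1 (0.1004) or 2 (0.0961). The transcript used (NM_001200001, chromosome 1, minus strand, 120477736 to 120612317) is a short form of 4287 bases. Its first exons have a near copy in NOTCH2NL, so reads of that part may be split between them. With the longest transcript, of 11430 bases, the changes were 0.15 in ΔE2 and 0.36 in ΔSE12313-b. NOTCH2NL went the other way, with means of 15.4 in control cells, 9.76 in ΔE2 clones and 10.9 in ΔSE12313-b clones (log2 fold changes -0.66 and -0.51, adjusted p = 0.000683 and 0.0021, limma).

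NOTCH3, the receptor of pericytes and smooth muscle, was almost silent. It had 0 reads in both controls, 14, 6 and 6 reads in the ΔE2 clones and 0, 3 and 1 reads in the ΔSE12313-b clones, which is an FPKM of at most 0.091. The 0 reads of the controls allow an FPKM of up to 0.0294 and 0.0309, taking 3 reads as the limit. The observed ΔE2 mean was 2.10-fold the mean of these limits, which leaves out the counting error of the ΔE2 reads. The low ends of the 95% Poisson intervals were 0.050, 0.016 and 0.020 in ΔE2 clones 1, 2 and 3, so those of clones 2 and 3 lay under both limits. No fold is given for ΔSE12313-b, whose clones held 3 reads or fewer. Mural cell markers were low apart from RGS5 and, in the control, ACTA2. Their summed FPKM was 28.6 to 30.2 in control cells, 18.3 to 39.4 in ΔE2 clones and 44.5 to 66.3 in ΔSE12313-b clones, with KCNJ8 at 0 in all libraries, and their part in the NOTCH3 reads was not tested. NOTCH3 is on the minus strand of chromosome 19 from 15270444 to 15311792.

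The summed FPKM of the 4 receptors had a mean of 54.7 in control cells (54.69 and 54.70), 53.2 ± 2.10 (SD, n = 3) for ΔE2 and 62.8 ± 5.53 (SD, n = 3) for ΔSE12313-b. The share of NOTCH4 in this sum was lower in each clone than in both controls, with means of 12.1% ± 0.361 (SD, n = 2) for control cells, 5.96% ± 1.63 (SD, n = 3) for ΔE2 and 2.92% ± 0.491 (SD, n = 3) for ΔSE12313-b. The share of NOTCH2 was 54.9%, 62.4% and 60.4% in the same order, and that of NOTCH1 was 33.0%, 31.5% and 36.7%. Shares within a library do not depend on how libraries are scaled to each other.

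**Figure D2:**
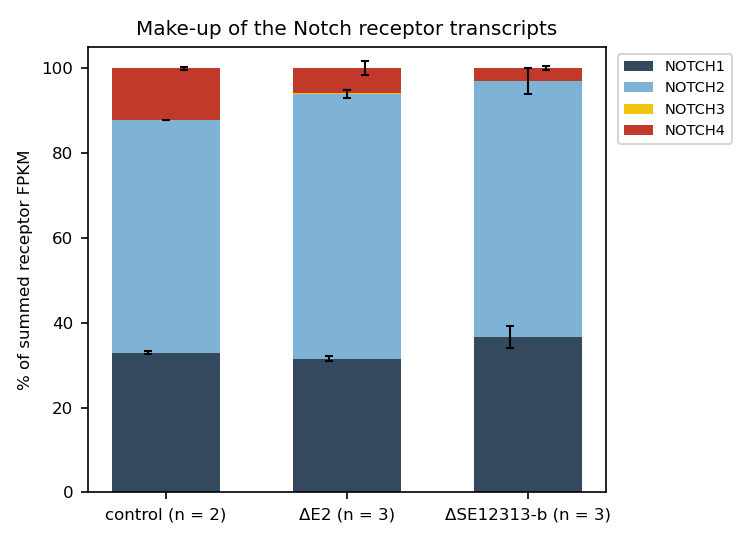
Share of each receptor in the summed FPKM of NOTCH1 to NOTCH4 (vertical axis, percent) as group means, with bars for the SD of each share drawn at the top of its segment. The NOTCH4 segment narrows from 12.1% for control cells to 5.96% for ΔE2 and 2.92% for ΔSE12313-b, and NOTCH3 is too small to be seen.

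Among the ligands, JAG1 had by far the highest level, with an FPKM of 17.9 in both controls, of 35.4, 20.3 and 34.6 in ΔE2 and of 38.5, 27.0 and 25.4 in ΔSE12313-b. All 6 clones were above the controls, but ΔE2 clone 2 only slightly so. The log2 fold change was 0.71 in ΔE2 (SE 0.26, adjusted p = 0.0515, limma) and 0.74 in ΔSE12313-b (SE 0.26, adjusted p = 0.0411), below 2-fold in both. Without ΔE2 clone 2 the change in ΔE2 was 0.97 (adjusted p = 0.00455), and with either control left out neither deletion reached an adjusted p under 0.05. In ΔSE12313-b it missed 0.05 in 8 of 20 alternatives, up to 0.325 with quantile normalization, and among these were the ones without ΔSE12313-b clone 1 (0.112) or 2 (0.05595). JAG1 is on the minus strand of chromosome 20 from 10618332 to 10654694.

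DLL4, the ligand of endothelial tip cells, was low. It had 41 and 32 reads in control cells, 61, 127 and 46 in ΔE2 and 27, 19 and 43 in ΔSE12313-b. The corresponding FPKM were 0.948 and 0.778, then 0.937, 2.18 and 0.992, and then 0.493, 0.376 and 0.794. ΔE2 clone 2 stood out above all other libraries, and both deletions overlapped the control. Neither change passed the test, with log2 fold changes of 0.52 in ΔE2 (95% interval -0.43 to 1.46, adjusted p = 0.317, limma) and -0.60 in ΔSE12313-b (95% interval -1.55 to 0.34, adjusted p = 0.235). DLL4 is on the plus strand of chromosome 15 from 41221531 to 41231258.

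JAG2, the other Jagged ligand, was also low, at 0.787 and 0.856 in the controls, 0.586, 0.453 and 0.670 in ΔE2 and 0.707, 1.04 and 0.813 in ΔSE12313-b. The ΔE2 clones were below all other libraries, but the log2 fold change of -0.47 (95% interval -1.06 to 0.12) did not pass the test (adjusted p = 0.152, limma). In ΔSE12313-b it was 0.03 (95% interval -0.56 to 0.62, adjusted p = 0.920), and its sign turned with the scaling. JAG2 is on the minus strand of chromosome 14 from 105607318 to 105635161. JAG1 made up 91.4% of the summed ligand FPKM in control cells, 93.3% in ΔE2 clones and 95.4% in ΔSE12313-b clones, and the sum itself was 19.5, 32.0 ± 7.88 (SD, n = 3) and 31.7 ± 6.98 (SD, n = 3).

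RBPJ, through which all 4 receptors act on DNA, had an FPKM of 8.90 and 8.85 in the controls, of 10.9, 10.3 and 11.98 in ΔE2 and of 12.2, 13.1 and 10.5 in ΔSE12313-b, above both controls in 6 of 6 clones. The log2 fold changes of 0.31 in ΔE2 (SE 0.11, adjusted p = 0.0432, limma) and 0.42 in ΔSE12313-b (SE 0.11, adjusted p = 0.0124) were well below 2-fold. They shrank to 0.17 and 0.14 relative to the median of all genes, and neither passed the adjusted p when the libraries were centred on that median or when either control was left out. In ΔE2 it missed 0.05 in 9 of 20 alternatives, up to 0.439 with quantile normalization, and among these were the ones without ΔE2 clone 1 (0.0778) or 3 (0.121) and without ΔSE12313-b clone 1 (0.0629). In ΔSE12313-b the adjusted p missed 0.05 in 4 of 20, up to 0.526 with quantile normalization. RBPJ is on the plus strand of chromosome 4 from 26321332 to 26436752.

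Both target genes were called in 1 deletion each, HES1 higher and HEY1 lower. HES1 had 51 and 64 reads in the controls, 101, 183 and 69 in ΔE2 and 144, 148 and 335 in ΔSE12313-b. The corresponding FPKM were 2.76 and 3.65, then 3.63, 7.35 and 3.48, and then 6.15, 6.87 and 14.5. The ΔSE12313-b clones lay above both controls, and of the ΔE2 clones clone 2 did so too. HES1 was upregulated in ΔSE12313-b by a log2 fold change of 1.39 (SE 0.43, adjusted p = 0.0229, limma), higher in 3 of 3 clones, and in ΔE2 the change was 0.50 (95% interval -0.49 to 1.49, adjusted p = 0.352). The call in ΔSE12313-b rests on both controls, since it was lost without control 1 (1.20, adjusted p = 0.121) or control 2 (1.59, adjusted p = 0.0545), and it was also lost with libraries centred on the median of all genes (1.11, adjusted p = 0.0597).

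HEY1 was lower than the control in all clones. It had 91 and 82 reads in the controls, 15, 47 and 16 in ΔE2 and 52, 36 and 75 in ΔSE12313-b. Its FPKM was 3.14 and 2.97 in the controls, 0.344, 1.20 and 0.514 in ΔE2 and 1.41, 1.06 and 2.07 in ΔSE12313-b, so 6 of 6 clones were below both controls. HEY1 was downregulated in ΔE2 by a log2 fold change of -2.15 (SE 0.45, adjusted p = 0.00445, limma). This call held with each of the 8 libraries left out in turn, with values from -2.59 to -1.82. In ΔSE12313-b the change of -1.01 (95% interval -2.04 to 0.02) did not pass (adjusted p = 0.0824), but it was called without ΔE2 clone 2, whose spread enters the shared error (-1.01, adjusted p = 0.0202). It was also called with centred libraries and with voom on the reads. HES1 lies on the plus strand of chromosome 3 from 193853931 to 193856401.

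Many DNA sites that RBPJ binds hold the letters TGGGAA. These letters were searched on both strands, read from GRCh37, and other forms of the site were not. The windows ran from 250 bases before to 50 bases after the start of the transcript used for each gene. Of 27859 such windows, 23.9% held at least 1 match, 3.43% held 2 or more, and 0.696% held 2 matches less than 30 bases apart. Among the Notch genes the HES1 window had 2 matches, 78 and 64 bases before the start, both on the strand of the gene. RBPJ's own window had 3, beginning 244, 79 and 36 bases before the start, HEY1's had 1, which began 30 bases after the start, and those of the 4 receptors and 3 ligands had 0. The 150 bases before the start are given for HES1, where the close pair lies, and for DLL4 and NOTCH4, whose levels were highest in the same clones as HES1 but whose windows lack these letters. Capitals mark the matches. The stretches are chr3:193853781-193853930 (plus strand), chr15:41221381-41221530 (plus strand) and chr6:32191845-32191994 (minus strand).
HES1: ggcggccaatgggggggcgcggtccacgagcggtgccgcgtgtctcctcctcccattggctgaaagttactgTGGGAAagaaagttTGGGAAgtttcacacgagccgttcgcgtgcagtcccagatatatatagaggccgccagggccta
DLL4: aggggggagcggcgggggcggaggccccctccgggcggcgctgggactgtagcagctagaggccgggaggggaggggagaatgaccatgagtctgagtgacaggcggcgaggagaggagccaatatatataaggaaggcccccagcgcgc
NOTCH4: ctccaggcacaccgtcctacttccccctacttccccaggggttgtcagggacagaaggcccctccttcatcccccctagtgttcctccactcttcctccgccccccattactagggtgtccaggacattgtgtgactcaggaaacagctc
A match is only a match of letters, a window without one may hold another form of the site, and no binding was measured in these libraries.

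**Figure D3:**
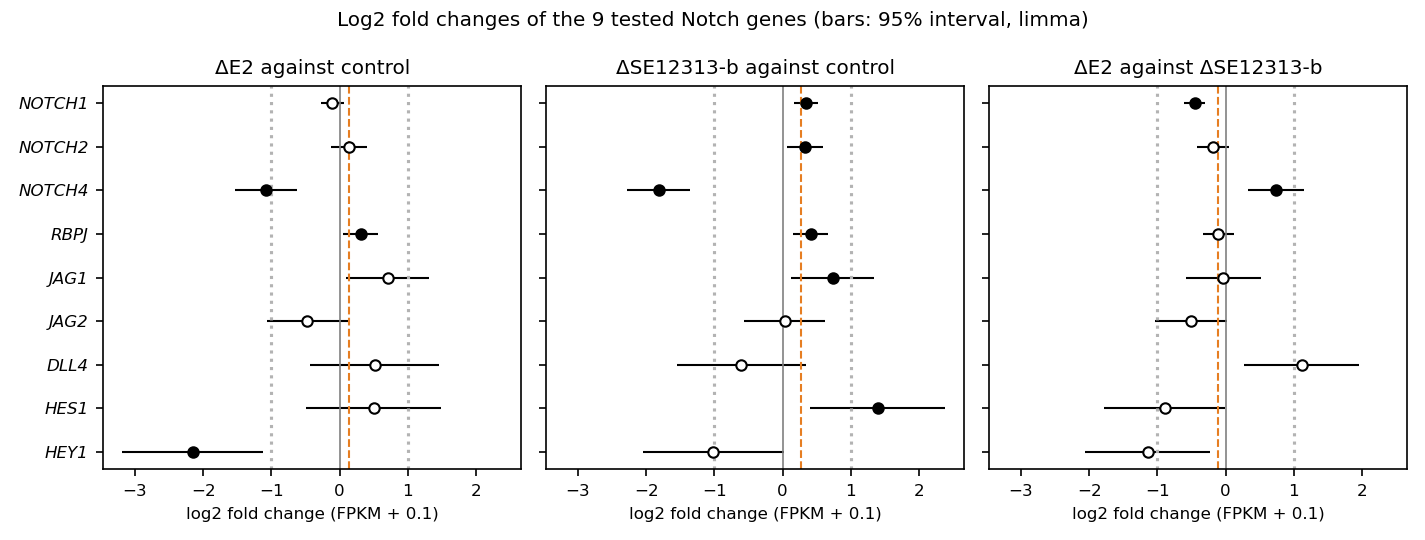
Log2 fold changes on the scale of FPKM + 0.1 (horizontal axes) of the 9 tested Notch genes in the 3 comparisons, with bars for the 95% interval of limma's fit, filled circles for an adjusted p under 0.05, dotted lines at a 2-fold change and a dashed line at the median of all tested genes. NOTCH4 is far to the left in both deletions (-1.08 and -1.81), HEY1 in ΔE2 (-2.15), and HES1 is to the right in ΔSE12313-b (1.39).

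When the deletions were set against each other, 1 gene was higher and 1 lower in ΔE2 with an adjusted p under 0.05 whatever the fold, against 6.69% and 19.3% of all tested genes. NOTCH1 was lower in ΔE2 than in ΔSE12313-b by a log2 fold change of -0.45 (SE 0.07, adjusted p = 0.00293, limma), and this passed in every alternative run, with values from -0.48 to -0.32. NOTCH4 was higher in ΔE2, by 0.74 (SE 0.18, adjusted p = 0.01996), and missed the threshold without ΔE2 clone 3 (0.70, adjusted p = 0.0649), ΔSE12313-b clone 1 (0.72, adjusted p = 0.0602) or ΔSE12313-b clone 2 (0.70, adjusted p = 0.0541). DLL4 was on average higher in ΔE2 by 1.12 (95% interval 0.27 to 1.96, adjusted p = 0.0579), with its lowest ΔE2 clone at 0.937 and its highest ΔSE12313-b clone at 0.794. It was called without ΔSE12313-b clone 3 (1.37, adjusted p = 0.0419). HES1 and HEY1 had differences of -0.89 (adjusted p = 0.127) and -1.14 (adjusted p = 0.0706), and both were called without ΔE2 clone 2 (-1.23 and -1.58). The remaining differences were -0.51 for JAG2, -0.19 for NOTCH2, -0.10 for RBPJ and -0.03 for JAG1, whose 95% interval ran from -0.57 to 0.51.

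The order of levels was similar in all groups at its top. In the control NOTCH2 came first (30.03), followed by NOTCH1 and JAG1 (18.0 and 17.9), RBPJ (8.87), NOTCH4 (6.63), HES1 and HEY1 (3.20 and 3.05), DLL4 and JAG2 (0.863 and 0.822) and NOTCH3. HES1 and HEY1 overlapped between the 2 controls, as did DLL4 and JAG2, and the counting intervals of NOTCH1 and JAG1 overlapped. In ΔE2 the means were 33.2 for NOTCH2, 30.1 for JAG1, 16.8 for NOTCH1, 11.1 for RBPJ, 4.82 for HES1, 3.15 for NOTCH4, 1.37 for DLL4, 0.686 for HEY1, 0.570 for JAG2 and 0.0633 for NOTCH3. NOTCH2 and JAG1 overlapped among these clones, as did HES1 and NOTCH4, DLL4 and HEY1, and HEY1 and JAG2. In ΔSE12313-b they were 38.0 for NOTCH2, 30.3 for JAG1, 22.9 for NOTCH1, 11.9 for RBPJ, 9.17 for HES1, 1.82 for NOTCH4, 1.51 for HEY1, 0.852 for JAG2, 0.554 for DLL4 and 0.011 for NOTCH3. Here the neighbors that overlapped were NOTCH2 and JAG1, RBPJ and HES1, NOTCH4 and HEY1, and JAG2 and DLL4.

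Among clones of the same deletion, HEY1, DLL4 and HES1 differed most of the 9 tested genes. Among the ΔE2 clones, the SD on the log2 scale was 0.80 for HEY1, 0.63 for DLL4 and 0.59 for HES1, against a median of 0.15 over all tested genes, so that these stood at percentiles 95.02, 92.9 and 92.2 of all tested genes. Among the ΔSE12313-b clones it was 0.67 for HES1, 0.46 for DLL4 and 0.45 for HEY1 (percentiles 93.1, 87.7 and 87.3). NOTCH1, in contrast, was at percentiles 18.1 and 12.8. DLL4 and HEY1 rest on 15 to 127 reads in these clones, and the part of counting error in their spread was not tested.

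The order of the clones was similar for several of the genes, which was noticed after the values had been seen and was not tested. NOTCH4, DLL4, HES1 and HEY1 were each highest in ΔE2 clone 2 among the ΔE2 clones and in ΔSE12313-b clone 3 among the ΔSE12313-b clones, a pattern shown by 20.01% of all tested genes. NOTCH1, NOTCH2, JAG1 and RBPJ were lowest in both of these clones, as were 21.7% of all tested genes. In ΔE2 clone 2, HEY1 was 0.88, DLL4 0.73 and HES1 0.68 above the mean of the ΔE2 clones on the log2 scale, while JAG1 was 0.52 below it. In ΔSE12313-b clone 3, HES1 was 0.76, DLL4 0.50 and HEY1 0.47 above the mean of its group. The summed endothelial markers were highest in the same 2 clones, at 522 in ΔE2 clone 2 (334 and 342 in the other ΔE2 clones) and at 454 in ΔSE12313-b clone 3 (397 and 335 in the other ΔSE12313-b clones), and their part in the pattern was not tested.

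**Figure D4:**
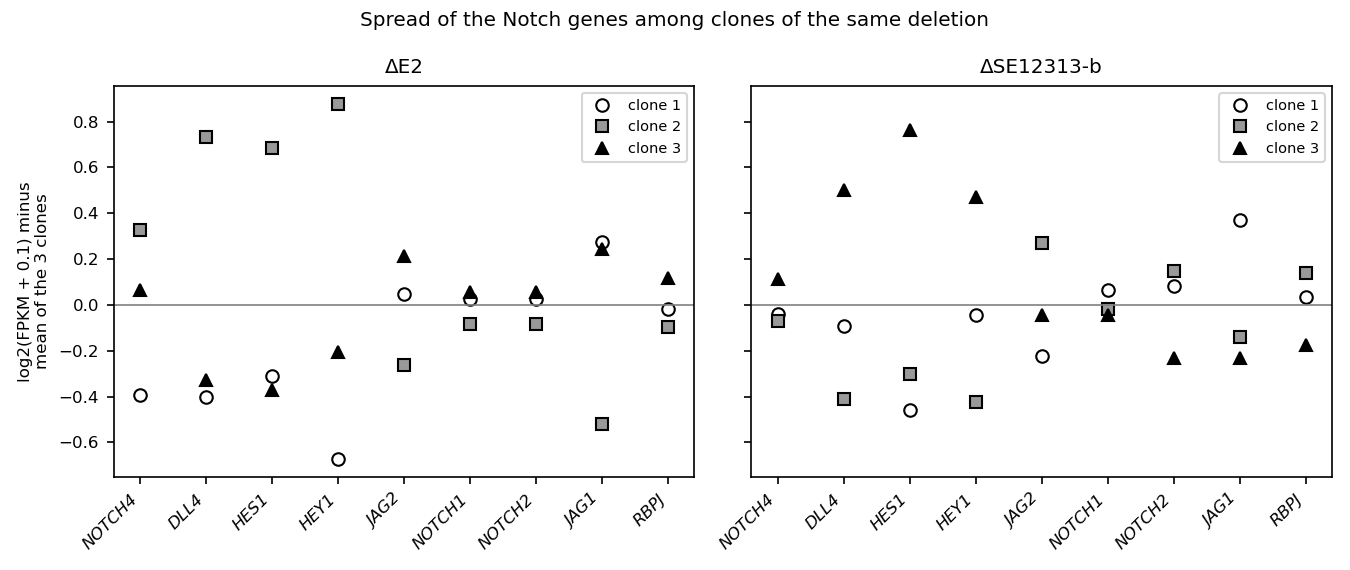
Log2(FPKM + 0.1) of the 9 tested Notch genes in each clone minus the mean of the 3 clones of its deletion (vertical axis), with open circles, gray squares and black triangles for clones 1, 2 and 3. ΔE2 clone 2 (left) and ΔSE12313-b clone 3 (right) lie above 0 for NOTCH4, DLL4, HES1 and HEY1 and below 0 for NOTCH1, NOTCH2, JAG1 and RBPJ.

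For each of the genes called in either deletion, the 2 tested genes with the most similar profile over the 8 libraries were found, by the root mean square difference of their log2 values after centring each gene on its mean. For NOTCH4 these were XIRP2 (0.12) and PLXNC1 (0.13), a semaphorin receptor. For HES1 they were HTRA3 (0.13), a secreted serine protease, and PMP22 (0.21), a membrane protein best known from myelin. For HEY1 they were MYLK (0.24), myosin light chain kinase, and PDE4B (0.26), a phosphodiesterase for cAMP. Clonal lines can also gain or lose stretches of chromosomes. The median log2 fold change of the tested genes within 5 Mb of each Notch gene lay between -0.11 and 0.36 in ΔE2 and between 0.014 and 0.47 in ΔSE12313-b. Around NOTCH4 it was -0.0023 and 0.18 over 203 genes, around HEY1, on chromosome 8, 0.21 and 0.014 over 13 genes, and around HES1 -0.11 and 0.38 over 51 genes. Over all tested genes it was 0.14 and 0.27. Of the 203 genes around NOTCH4, 26 were called higher and 32 lower in ΔE2, and 34 and 33 in ΔSE12313-b. Within 2 Mb, of 129 genes, 6 were called higher and 25 lower in ΔE2, and 16 and 22 in ΔSE12313-b. Within 10 Mb, of 283 genes, these were 65 and 34, and 74 and 33. Of all tested genes, 11.2% were called higher and 8.36% lower in ΔE2, and 14.7% and 7.83% in ΔSE12313-b. The share called lower around NOTCH4 was above that of all tested genes in both deletions at each distance. The share called higher was above it within 5 and 10 Mb and under it within 2 Mb. The part of gained or lost stretches in the Notch results was not tested.

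Beyond the 10 genes, a list of 47 other genes of the pathway was examined, of which 35 passed the filter. In ΔE2, 1 was called higher (HDAC1) and 4 were called lower (MIB2, RFNG, HES4 and HES7), where 11.2% and 8.36% of all tested genes were, and their median log2 fold change was -0.02, against 0.14 over all genes. In ΔSE12313-b, 3 were called higher (POFUT1, KAT2B and HDAC1) and 1 was called lower (TLE1), where 14.7% and 7.83% of all tested genes were, with a median of -0.03 against 0.27. With libraries centred on the median of all genes, 1 was called higher (KAT2B) and 5 were called lower in ΔSE12313-b (HES7, MAML3, MIB2, RFNG and TLE1), and 1 higher and 7 lower in ΔE2. Whatever the fold, 9 were higher and 12 lower with an adjusted p under 0.05 in ΔE2, where 34.7% and 19.4% of all tested genes were, and 13 were higher and 12 lower in ΔSE12313-b, where 43% and 16.4% were. Between the deletions 0 were called at 2-fold by limma or voom (4 higher and 14 lower at an unadjusted p under 0.05), and 3 were higher and 11 lower in ΔE2 whatever the fold, where 6.69% and 19.3% of all tested genes were. The 12 genes under the filter included the ligands DLL1 and DLL3 and the targets HES2, HES5, HES6, HEY2 and HEYL, and DLL3 and HEYL were at 0 in all libraries.

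**Figure D5:**
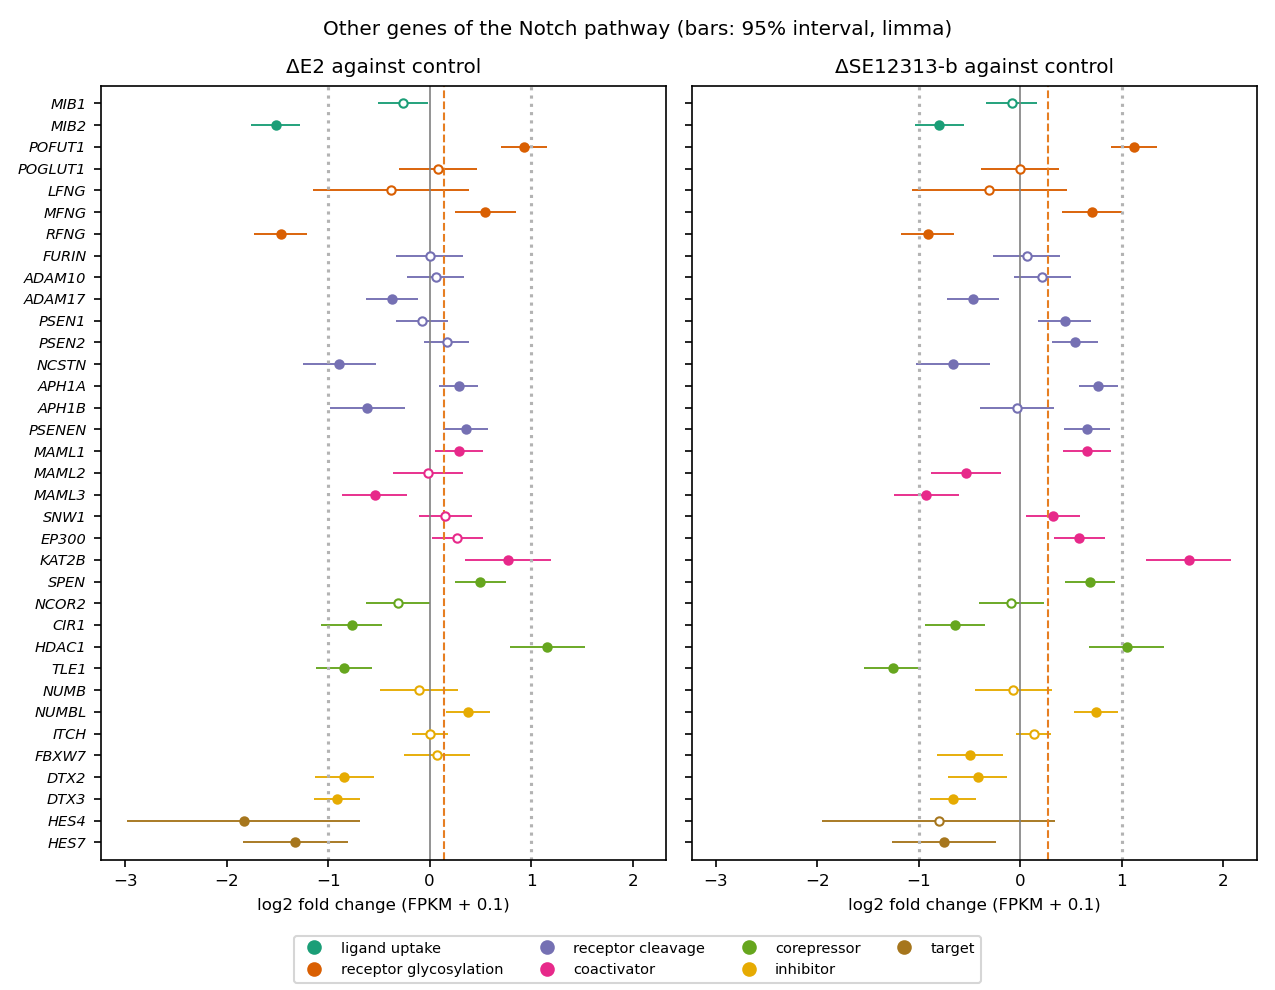
Log2 fold changes on the scale of FPKM + 0.1 (horizontal axes) of the 35 tested genes of the wider pathway, colored by role, with bars for the 95% interval of limma's fit, filled circles for an adjusted p under 0.05, dotted lines at a 2-fold change and a dashed line at the median of all tested genes. MIB2, RFNG, HES4 and HES7 lie left of the 2-fold line in ΔE2, KAT2B lies right of it in ΔSE12313-b, and HDAC1 lies right of it in both.

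Of the genes that act on ligands and receptors before cleavage, 2 of ligand uptake and 5 of receptor glycosylation were tested, and MIB2 and RFNG were called in ΔE2 and POFUT1 in ΔSE12313-b. MIB1, POGLUT1, LFNG and MFNG were called in neither. The share called in either direction over all tested genes was 19.6% in ΔE2 and 22.6% in ΔSE12313-b. With so few genes, nothing particular to these kinds of gene is read from the counts. MIB2, a ubiquitin ligase that helps ligands to be taken up, went from 6.10 and 6.6 in the controls to 2.30, 2.07 and 2.08 in ΔE2, a log2 fold change of -1.52 (SE 0.10, adjusted p = 1.8e-05, limma), and was 3.73, 3.63 and 3.45 in ΔSE12313-b (-0.80). RFNG, one of the Fringe enzymes that extend sugars on the receptors, fell by 1.47 in ΔE2 on the log2 scale, from 8.71 and 7.61 to 2.77, 3.15 and 2.75, and was at 4.55, 4.27 and 4.05 in ΔSE12313-b (-0.91). POFUT1, which adds the fucose that Fringe extends, went the other way, from 16.4 and 15.9 to 37.6, 36.4 and 32.1 in ΔSE12313-b (1.12) and to 31.7, 28.1 and 33.1 in ΔE2 (0.93). Relative to the median of all genes its change in ΔSE12313-b was 0.85, under 2-fold, and the call was lost with centred libraries. MIB2 and RFNG were lower in ΔE2 than in ΔSE12313-b also when tested directly (-0.72 and -0.56, adjusted p = 0.0019 and 0.00665, limma).

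Of the nuclear partners, KAT2B, an acetyltransferase that joins the activator complex, went from 0.672 and 0.586 in the controls to 2.498, 2.05 and 2.07 in ΔSE12313-b (log2 fold change 1.66, SE 0.18, adjusted p = 0.000147, limma) and was 1.09, 1.31 and 1.04 in ΔE2 (0.77). HDAC1, a deacetylase of the repressor complex, rose from 22.7 and 21.8 to between 41.2 and 62.8 in the 6 clones (1.16 in ΔE2 and 1.05 in ΔSE12313-b). TLE1, a corepressor recruited by HES proteins, fell by 1.26 in ΔSE12313-b on the log2 scale, from 23.5 and 24.1 to 10.0, 8.43 and 11.5, and was 13.1, 13.0 and 13.6 in ΔE2 (-0.84). The call of HDAC1 in ΔE2 was lost without ΔE2 clone 2, the clone with its highest value. In ΔSE12313-b its change relative to the median of all genes was 0.78, and the call was lost with centred libraries.

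HES4 and HES7, the other HES genes that passed the filter, were called lower in ΔE2 and not called in ΔSE12313-b. HES4 had 18 and 27 reads in the controls, 18, 6 and 3 in ΔE2 and 12, 14 and 21 in ΔSE12313-b, and was downregulated in ΔE2 (log2 fold change -1.83, SE 0.50, adjusted p = 0.0153, limma). HES7, known as an oscillating gene of the segmentation clock, went from 4.22 and 4.29 to 2.08, 1.20 and 1.77 in ΔE2 (-1.32, SE 0.22, adjusted p = 0.00162, limma) and was 2.85, 2.20 and 2.46 in ΔSE12313-b (-0.75, adjusted p = 0.0197). Of the 9 genes that cut the receptor, from FURIN to the γ-secretase subunits, 0 were called by limma in either deletion. Of all tested genes, 19.6% were called in either direction in ΔE2 and 22.6% in ΔSE12313-b. At an adjusted p under 0.05 whatever the fold, 2 were higher and 3 lower in ΔE2, where 34.7% and 19.4% of all tested genes were. In ΔSE12313-b, 4 were higher and 2 lower, where 43% and 16.4% of all tested genes were. Of the 6 inhibitors tested, 0 were called as well, and voom called 0 of either kind. At that adjusted p whatever the fold, 1 inhibitor was higher and 2 lower in ΔE2, and 1 was higher and 3 lower in ΔSE12313-b. With so few genes, nothing particular to either kind is read from these counts.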

How the data were processed

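RNA of 2 control, 3 ΔE2 and 3 ΔSE12313-b libraries of EA.hy926 cells was sequenced with single-end reads after depletion of ribosomal RNA, with a directional kit. According to the methods and the submitters' processing notes, the authors trimmed reads with Trim Galore 0.4.4 (Phred cutoff 30) and mapped them with STAR 2.5.4b to GRCh37/hg19, and featureCounts is named for their own gene counts, which were not used here. The authors deposited 1 table of FPKM for 65572 RefSeq transcripts, and the program, the RefSeq release and the use of strand behind it are not given in the sources used here. FPKM times transcript length, divided by a step fitted in each library, gave whole reads. The check used 37367 to 43505 values per library, above 0 and of single-copy transcripts short enough for the rounding. Of these values, 100% were within 0.1 read. For the others, NOTCH1 and NOTCH4 among them, the reads were taken with the same step, and so were the library sizes.

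The deposited FPKM were used unchanged, with 1 transcript kept per symbol. The 13790 genes with 0.5 FPKM or more in 2 libraries were fitted after log2(FPKM + 0.1) by limma 3.58.1, run in R 4.3.3 (trend, 3 groups in 1 model, two-sided tests), since counts as used by the authors were not at hand. The steps were run on simulated data with 1 common spread and independent libraries. Since the clones and controls here may differ from that, the run says nothing on the calls. Poisson intervals (95%) and the limit of 3 reads cover counting error only. Replicate numbers are those of the labels, and clones carry the number of their replicate. All 10 members are named, with every other pathway gene called in either deletion and, for each member called, the 2 genes with the most similar profile. The members, the lists and the tests were chosen with earlier results of these data known. Alternatives were 2 other pseudocounts, 2 other filters, 2 other scalings, other designs, voom on the reads, the longest transcript, 1.5-fold, other windows and each library left out. Promoter windows were read from GRCh37 at the table's transcript starts. RefSeq's promoter table has no HEY1 entry.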

Additional observations from a re-analysis of the deposited data

Results flagged for a closer look

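NOTCH1 and NOTCH4 differed between the deletions when ΔE2 was set directly against ΔSE12313-b. NOTCH1 was lower in ΔE2 by a log2 fold change of -0.45 (adjusted p = 0.00293, limma with Benjamini-Hochberg adjustment), where the median of all tested genes was -0.11. In FPKM as deposited, the 3 ΔSE12313-b clones lay above both controls and the 3 ΔE2 clones just below them. Which deletion differed more from the control depended on the scaling. With centred libraries, NOTCH1 changed by 0.056 in ΔSE12313-b and by -0.26 in ΔE2. NOTCH4 was higher in ΔE2 by 0.74 (adjusted p = 0.01996), with both deletions below the control. Each deletion is represented by 3 clones, and how far clones of one deletion stand for it was not tested.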

How the results depend on the processing

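Over 20 alternatives, the log2 fold changes of the 9 tested Notch genes in 3 comparisons kept their sign and their side of the threshold in 503 cases. They reversed in 14, gained a call in 12 and lost one in 5. All 14 reversals were of values under 2-fold that had not been called. With libraries centred on the median of all genes, NOTCH2 in ΔE2 was -0.015, JAG2 in ΔSE12313-b -0.26, and JAG1 and RBPJ between the deletions 0.10 and 0.027. With quantile normalization, NOTCH2 in ΔE2 was -0.17, NOTCH1 and NOTCH2 in ΔSE12313-b were -0.075 and -0.11, and JAG1 and RBPJ between the deletions were 0.10 and 0.019. With 1 library left out, JAG2 in ΔSE12313-b ran from -0.10 to 0.14 and JAG1 between the deletions from -0.17 to 0.23. Replicates of the same number did not deviate together more than others (correlations across genes from -0.08 to 0.11 for same numbers and from -0.08 to 0.14 for different ones). Deviations sum to 0 within a group, so the 2 controls mirror each other and the correlations are not independent. Whether libraries of the same number shared any handling is not stated and was not tested. A replicate block turned JAG2 in ΔSE12313-b to -0.0094, changed no 2-fold call of a Notch gene and moved no count of calls by over 1.5 times.

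Notch genes called lower in ΔE2 numbered 1 with a pseudocount of 1, without NOTCH4 (-0.90, adjusted p = 0.00166, limma), and from 1 to 2 with a library left out. In ΔSE12313-b, the number called higher was 0 with centring and 2 (with JAG1) at 1.5-fold, and from 0 to 1 with a library left out. The number called lower there was 2, with HEY1, under centring, with only the groups compared, and with voom on the reads, and from 1 to 2 with a library left out. Between the deletions, 1 was higher in ΔE2 with centring (DLL4), voom (DLL4) and 1.5-fold (NOTCH4), and 1 was lower with voom (HEY1). With a library left out these counts ran from 0 to 1 and from 0 to 2.

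Of the other pathway genes, the number called lower in ΔE2 was 2 with a pseudocount of 1, 7 with centring, 8 with quantile normalization and 10 at 1.5-fold, and the number called higher was 3 at 1.5-fold and from 0 to 1 with a library left out. In ΔSE12313-b, 1 was called higher with centring and with quantile normalization and 9 at 1.5-fold, and 5, 7 and 8 were called lower under the same settings, and from 1 to 2 with a library left out. Lower in ΔE2 than in ΔSE12313-b was 1 gene (HES6) with the looser filter and 2 at 1.5-fold, and from 0 to 1 with a library left out. Over the whole table, a pseudocount of 1 gave 653 genes lower in ΔE2, 593 lower in ΔSE12313-b, and 100 higher and 140 lower between the deletions. At 1.5-fold there were 3109 higher and 1945 lower in ΔE2, 4124 and 1678 in ΔSE12313-b, and 492 and 1139 between the deletions. A mean FPKM of 1 or more left 673 lower in ΔSE12313-b, and centring left 1201 higher there. With a library left out, the genes called lower ran from 756 to 1260 for ΔE2 and for ΔSE12313-b from 693 to 1100, and the lowest values were those with a control left out. The cause was not tested for any of these, apart from the lower fold threshold, which acts by construction. Leaving out a library did not always lower a count, since 1260 genes were lower in ΔE2 without ΔE2 clone 2, against 1153 with all libraries.

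With 1 read in place of 3, the observed ΔE2 mean of NOTCH3 was 6.30-fold the control value, though 0 observed reads also allow more than 1. With the longest transcript of each gene, NOTCH1 made up 34.1% of the receptors in the control and 32.7% in ΔE2, and NOTCH2 53.5% and 61.1%. The medians of neighboring genes moved with the window. Within 2 Mb in ΔE2 they were 0.020 around NOTCH1, 0.16 around NOTCH3, -0.080 around NOTCH4, 0.13 around JAG2, 0.11 around HES1, -0.12 around HEY1 and -0.12 around RBPJ, and within 10 Mb 0.059 around NOTCH3, 0.15 around NOTCH4, 0.0052 around JAG2 and 0.22 around DLL4. In ΔSE12313-b they were, within 2 Mb, 0.38 around NOTCH1, 0.015 around NOTCH2, -0.025 around NOTCH4, 0.57 around JAG2, 0.33 around DLL4 and -0.12 around HEY1. Within 10 Mb they were 0.25 around NOTCH2, 0.35 around NOTCH4, 0.23 around JAG1, 0.11 around JAG2, 0.32 around DLL4, 0.41 around HEY1 and 0.43 around RBPJ. Depth limits NOTCH3, HEY1, DLL4 and JAG2 most, with 0 to 14, 15 to 91, 19 to 127 and 45 to 89 reads in a library.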
